A study of Rattus norvegicus with 4 samples.

Results

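The granin family and 2 further soluble proteins of the secretory granule were followed across the cells of the rat anterior pituitary. The 6 genes are *Chga*, *Chgb*, *Scg2*, *Scg3*, *Resp18* and *Vgf*, taken by their symbols from the 30058 genes of the count table, and each symbol had 1 row. Dispersed cells of Sprague Dawley rats were profiled by droplet single-cell RNA sequencing that counts the 3′ ends of transcripts by unique molecular identifier (UMI). The cells came from 1 pool of 4 pituitaries of 44-day-old diestrus females and 1 pool of 4 pituitaries of 59-day-old males, and each pool was run on 2 lanes. The lanes are technical replicates of a pool, so the spread over animals is unknown, and sex, pool and age cannot be told apart. P-values of differences by sex measure error between lanes only. Those between cell types measure how far type differences varied between the female and the male pool. After quality control 6850 of 7861 cells were used, in 9 types set by the marker genes of the study. They were 361 erythrocytes (E), 552 leukocytes (Le), 133 endothelial cells (EC), 2312 folliculostellate cells (FSC) and 5 types of hormone-producing cells (HPC), which were 793 corticotrophs (C), 239 gonadotrophs (G), 85 thyrotrophs (T), 1890 somatotrophs (S) and 485 lactotrophs (L).

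Granins are acidic, soluble proteins of the regulated secretory pathway. They aggregate with hormones in the trans-Golgi network, help to form dense-core granules, and are released with the hormones, in part as smaller peptides cut out by prohormone convertases. *Chga* and *Chgb* encode chromogranins A and B, *Scg2* encodes the precursor of secretoneurin, and *Scg3* encodes secretogranin III, which binds chromogranin A and the granule membrane. *Vgf* encodes a nerve growth factor-inducible precursor of secreted peptides, and *Resp18* encodes a regulated endocrine-specific protein related to the luminal part of the granule membrane protein IA-2. Pituitary endocrine cells are among the richest sources of these proteins.

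RefSeq promoters of the assembly GRCr8, a later build than the one used for counting, were available for 5 of the 6 genes, without *Chga*. The 250 bases before the start of each gene were searched on both strands for the cyclic AMP response element TGACGTCA and its TGACG core, because cyclic AMP is a common second messenger of hypothalamic signals in these cells. The whole element was found before *Scg2* and *Vgf*, and it is shown here in capitals with its flanks, 5′ to 3′ along the gene.
Scg2, chr9:88256971-88257000, minus strand: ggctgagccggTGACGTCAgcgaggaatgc
Vgf, chr12:25277092-25277121, minus strand: tgaatgaacatTGACGTCAatggggcgggg
Its first base lay 123 bases before the start of *Scg2* and 90 bases before that of *Vgf*. Of 33469 promoters searched in the same way, 1.59% held the element and 18.2% held the core. The windows of *Chgb* and *Resp18* held neither, and that of *Scg3* held the core alone. A match of letters is a description of the sequence and was not tied to any level below. By mean level, given further on, *Scg2* ranked G, T, L, C and S from highest to lowest, and *Vgf* ranked T, L, G, S and C.

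The 6 genes were followed first by the share of cells that expressed them. A cell counted as expressing a gene when its count, scaled to the median of 8853 UMIs per cell, reached the Otsu threshold of that gene, which splits a distribution into a low and a high class. *Resp18*, *Chgb* and *Scg2* had served with *Uchl1* to recognise hormone-producing cells, and ambiguous cells had been removed, so their shares in and outside these cells follow in part from the classification and are a description. *Chga*, *Scg3* and *Vgf* were not used for it. *Chga*, *Chgb*, *Scg2* and *Resp18* passed their thresholds in at most 0.476% of FSC and at most 0.362% of Le, and in 0 of 361 E, which allows a share of up to 0.831%. *Resp18* was the most even of the 6 genes, with 99.9% of C, 99.2% of G, 98.8% of T, 99.3% of S and 96.1% of L. *Chgb* was expressed in 98.7% of C (95% exact binomial interval 97.7 to 99.4), 97.6% of T (91.8 to 99.7), 98.1% of L (96.5 to 99.1), 92.5% of G (88.4 to 95.5) and 70.5% of S (68.4 to 72.5).

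*Chga* was the gene whose share ranged most widely over the 5 types. It was expressed in 99.6% of G, 90.6% of T (82.3 to 95.8), 71.2% of S (69.1 to 73.2), 48.7% of L (44.1 to 53.2) and 11.1% of C. A cell below the threshold of 2.22 scaled UMIs can still hold the transcript. At least 1 *Chga* UMI was present in 93.3% of S, 85.4% of L and 55.6% of C, against 8.78% of FSC. The paper states that thresholds of this kind give too low a share for some genes. *Scg2* was expressed in 99.6% of G, 96.5% of T and 96.1% of L, against 75.9% of C and 64.8% of S. *Scg3* was expressed in 97.6% of T and 95.1% of L, against 79.9% of G, 61.7% of C and 57.4% of S. *Vgf* was found in a minority of every type, with 15.5% of G (11.1 to 20.7), 14.2% of L (11.2 to 17.7), 11.8% of T (5.79 to 20.6), 4.97% of S and 1.77% of C. These intervals cover counting error only. With each cell thinned to 2000 UMIs, to hold depth equal, *Chga* was still detected by at least 1 UMI in 95.0% of G, 77.6% of T, 60.6% of S, 44.3% of L and 19.7% of C, against 2.54% of Le.

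**Figure D1:**
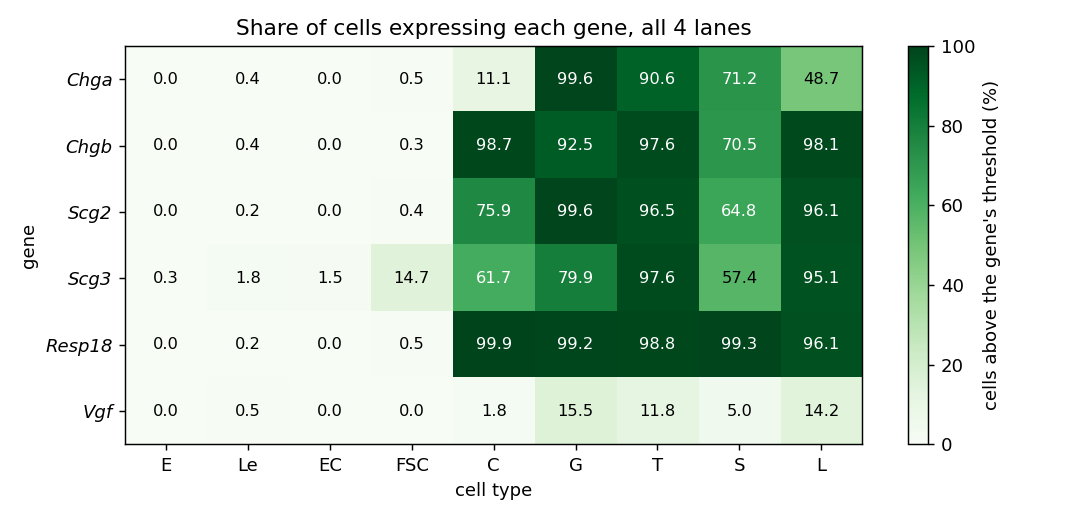
Share of cells (%) in which each of the 6 genes (rows) passed its Otsu threshold, in 9 cell types (columns), over all 4 lanes. *Resp18* passed in 96.1 to 99.9% of every hormone-producing type, *Chga* ranged from 99.6% of G to 11.1% of C, and FSC stood out from E, Le and EC for *Scg3* alone, at 14.7%.

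Free RNA from lysed cells can give UMIs in droplets of every type, and its part in the values outside HPC was not tested. At least 1 *Resp18* UMI was present in 26.0% of E, 40.4% of Le, 48.9% of EC and 51.4% of FSC, at median depths of 8246, 6483, 7330 and 6895 UMIs per cell. The threshold of 8.18 scaled UMIs for this gene lay above nearly all of these cells. Levels are given as UMIs of the gene per 1000000 UMIs of the type in a lane (CPM). The 6 genes together made up 208 CPM in FSC and 132 in Le, against 8981 in S and 29720 in G, as means of the 4 lanes.

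*Scg3* in FSC stood apart by its ratio to *Chgb*. Its level was 27.6 and 37.0 CPM in the female lanes of FSC and 34.9 and 37.6 in the male lanes, while Le held 2.89 to 4.29 in the 4 lanes. The lanes of the 2 types did not overlap. FSC had 1.55 UMIs of *Scg3* for each UMI of *Chgb*, whereas E, Le and EC had 0.143 to 0.316 and the 5 hormone-producing types had 0.0828 to 0.307. *Scg3* passed its threshold in 14.7% of FSC (13.3 to 16.2), against 1.81% of Le, and at 2000 UMIs per cell it was detected in 6.23% of FSC and 0.543% of Le. For *Chga*, *Scg2* and *Resp18* the ratios to *Chgb* in FSC, 0.699, 0.725 and 5.63, were within or just beyond the range of E, Le and EC (0.368 to 0.714, 0.474 to 0.779 and 3.99 to 5.52).

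Levels in 2 types were compared on the UMI sums of each type in each sex, with edgeR and sex as a term. The error of this fit is the variation of type differences between the female and the male pool. It therefore includes differences between the sexes that depend on the type, which all 6 genes showed, as given below. Since UMIs count 3′ ends, levels of different genes need no correction for length. The paper found, however, that reads of many genes fell beyond their annotated 3′ ends, which it extended. How fully each gene was counted was not tested, so comparisons between genes are of UMIs only. Values below are log2 fold changes ± SE with p-values adjusted over all genes tested in the contrast. *Resp18*, *Scg2* and *Chgb* were higher in HPC than in FSC, by 6.21, 7.18 and 7.06 on the log2 scale. This is a description, since they had served to recognise HPC. With the rule on these genes and *Uchl1* left out, 2293 of 2312 FSC kept their type, and the differences of *Resp18*, *Scg2* and *Chgb* still passed. The 3 other genes were not used and were higher in HPC, where 47.7% of all genes differed between HPC and FSC at an adjusted p of 0.05 and 18.3% were higher in HPC. *Chga* was higher by 6.08 ± 0.60 (adjusted p = 4.2e-06) and *Scg3* by 3.80 ± 0.28 (adjusted p = 3.0e-07). *Vgf* had 1107 UMIs in HPC and 3 in FSC, a ratio of 152 per UMI sequenced, with an exact counting interval of 52.0 to 739.

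Between the 5 hormone-producing types, 35 of 60 contrasts of the 6 genes (10 pairs of types for each gene) passed. Over all genes tested, the share that passed was 14.2% for C against G, 8.96% for C against T, 22.5% for C against S, 21.0% for C against L and 3.40% for G against T. It was 17.6% for G against S, 15.4% for G against L, 6.07% for T against S, 6.67% for T against L and 8.81% for S against L. The genes had 8 of 10 (*Scg2*), 7 of 10 (*Chga* and *Scg3*), 6 of 10 (*Chgb*), 4 of 10 (*Vgf*) and 3 of 10 (*Resp18*) contrasts past the limit. C against S and T against L had the fewest calls, 1 each.

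*Chga* was highest in G in either sex. Its level in G was 2719 and 2708 CPM in the female lanes and 16546 and 15630 in the male lanes. In T the lanes held 1548 and 2323 in females and 1092 and 1227 in males, in S they held 490 and 505 in females and 714 and 752 in males, and in L 235 and 240 in females and 465 and 438 in males. C was lowest, with 101 to 143 in the 4 lanes. No lane of G overlapped a lane of another hormone-producing type, and neither did any lane of C. On the log2 scale *Chga* was higher in G than in S by 3.27 ± 0.55 (adjusted p = 0.0015), than in L by 4.14 ± 0.57 (adjusted p = 0.00051) and than in T by 2.40 ± 0.54 (adjusted p = 0.031), and it was 5.87 ± 0.62 lower in C than in G (adjusted p = 7.3e-05). The contrast with T averages unlike sexes, with G at 2713 CPM and T at 1868 in females, and 16069 and 1152 in males. T, S and L, neighbours in the order of levels, did not pass against each other (adjusted p from 0.068 to 0.36). T against L passed, however, with DESeq2 (1.77, adjusted p = 0.033), by library size (2.31, adjusted p = 0.018) and in thinned cells (1.75, adjusted p = 0.015). It also passed without the filter on low counts (1.70), with sums per lane (1.69) and without the male lane of 2047 cells (1.76). T against S (0.75) and S against L (0.95) passed only without that filter. The call of C below L was lost with scaling by library size (-1.35, adjusted p = 0.082) and without the gate for hormone-producing cells (-1.72, adjusted p = 0.053), and that of G above T without the same gate (2.35, adjusted p = 0.057).

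*Chgb*, the second chromogranin, had its highest levels in T and L. T held 5564 and 4751 CPM in the female lanes and 10519 and 11806 in the male lanes, and L held 3843, 3539, 3422 and 3681. C followed with 2113 to 2239, then G with 1152 to 1980 and S with 711 to 967. T and L were not separated (0.60 ± 0.36, adjusted p = 0.36), except by library size (1.10, adjusted p = 0.013). Neither were G and S (0.37 ± 0.35, adjusted p = 0.52), except by library size (0.80, adjusted p = 0.029). C and G did not pass (0.67 ± 0.35, adjusted p = 0.25), except without the filter on low counts (0.73, adjusted p = 0.029) and with sums per lane (0.69, adjusted p = 0.028). T was above S by 2.81 ± 0.37 (adjusted p = 0.0015), and S was below L by 2.21 ± 0.37 (adjusted p = 0.0025). C against S missed the limit narrowly (1.05 ± 0.35, adjusted p = 0.051). It passed by library size (1.41), in thinned cells (1.05), with doublets and outlying cells kept (1.09) and without the filter on low counts (1.03). It also passed with sums per lane (1.05) and without the female lane of 1868 cells (1.03) or the male lane of 2047 cells (1.05). C was below L by 1.16 ± 0.35 (adjusted p = 0.036), a call that was lost without the female lane of 1861 cells (adjusted p = 0.063).

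*Scg2*, the secretoneurin precursor, had an order unlike that of *Chgb*. G was highest, with 7604 and 8405 CPM in the female lanes and 12018 and 12494 in the male lanes. T held 2859 to 4295 and L 2272 to 2742, and C (493 to 613) and S (438 to 574) were lowest and overlapped. G exceeded T by 1.51 ± 0.32 (adjusted p = 0.022), L by 1.49 ± 0.32 (adjusted p = 0.0082) and S by 3.86 ± 0.35 (adjusted p = 1.8e-05). T and L differed by -0.02 ± 0.31 (adjusted p = 1), and C and S by -0.21 ± 0.31 (adjusted p = 0.67). G was thus first for both *Chga* and *Scg2*, while *Chgb* in G, at a mean of 1456, was below its level in T by 2.43 ± 0.37 (adjusted p = 0.0035) and in L by 1.84 ± 0.36 (adjusted p = 0.0052).

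*Scg3*, the granin that links chromogranin A to the membrane, was highest in T, with 962 to 1020 CPM in the 4 lanes, and in L, with 599 and 582 in the female lanes and 907 and 1085 in the male lanes. G held 462 and 501 in females and 296 and 313 in males, and C (164 to 211) and S (153 to 216) overlapped below it. T and L did not pass against each other (-0.13 ± 0.27, adjusted p = 0.84), nor did C and S (-0.36 ± 0.27, adjusted p = 0.38) or G and S (0.71 ± 0.27, adjusted p = 0.094). G and S passed by library size (1.13, adjusted p = 0.012), in thinned cells (0.90, adjusted p = 0.031) and with sums per lane (0.72, adjusted p = 0.0024). L was above S by 2.08 ± 0.28 (adjusted p = 0.00061 for S below L) and above C by 2.44 ± 0.28 (adjusted p = 0.00011). G was below T by 1.24 ± 0.28 (adjusted p = 0.031), and this call was lost without the female lane of 1861 cells (adjusted p = 0.052) and in thinned cells (-1.09, adjusted p = 0.054).

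*Resp18* had the most UMIs of the 6 genes in C, T and S and varied least, 3.21-fold between the mean levels of T and L. T held 11372 to 13541 CPM, G 6737 and 6622 in females and 10067 and 9769 in males, C 7487 to 8364 and S 5894 to 7797. L was lowest, with 2176 and 2283 in the female lanes and 5563 and 5906 in the male lanes. T exceeded L by 1.34 ± 0.26 (adjusted p = 0.011), S exceeded L by 0.90 ± 0.25 (adjusted p = 0.047) and C exceeded L by 0.78 ± 0.26 (adjusted p = 0.048). The last 2 calls lay at the limit and were lost without the female lane of 1861 cells (0.90 and 0.78, adjusted p = 0.077 and 0.076) or the male lane of 2047 cells (0.87 and 0.76, adjusted p = 0.061 for both). No pair among C, G, T and S passed.

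*Vgf* was scarce, with 1107 UMIs in all hormone-producing cells, and it was concentrated in few of them. T, at 228, 290 and 294 CPM in 3 lanes and 33.1 in the male lane of 2085 cells, had the highest mean, but its 191 UMIs lay in 10 of 85 cells, and 1 male cell held 109 of them (57.1%). Without that cell's UMIs the sum of T came to 85.8 CPM. L held 36.8 and 35.6 in the female lanes and 92.6 and 119 in the male lanes, from 102 of 485 cells, the highest of which held 26 UMIs. S held 7.38 to 19.0 and C 1.69 to 3.29, a total of 23 UMIs in C. *Vgf* was lower in C than in T by 6.27 ± 0.98 (adjusted p = 0.0021), than in L by 5.06 ± 0.95 (adjusted p = 0.0028) and than in G by 4.15 ± 0.99 (adjusted p = 0.014). The last contrast averages unlike sexes. G held 81.6 CPM in females and 1.09 in males (1 UMI), beside 2.56 and 2.40 in C, so in males C was not below G. T exceeded S by 3.50 ± 0.78 (adjusted p = 0.023), which was lost without the male lane of 2047 cells (2.83, adjusted p = 0.062), the lane with the cell of 109 UMIs, and with DESeq2 (3.53, adjusted p = 0.099).

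**Figure D2:**
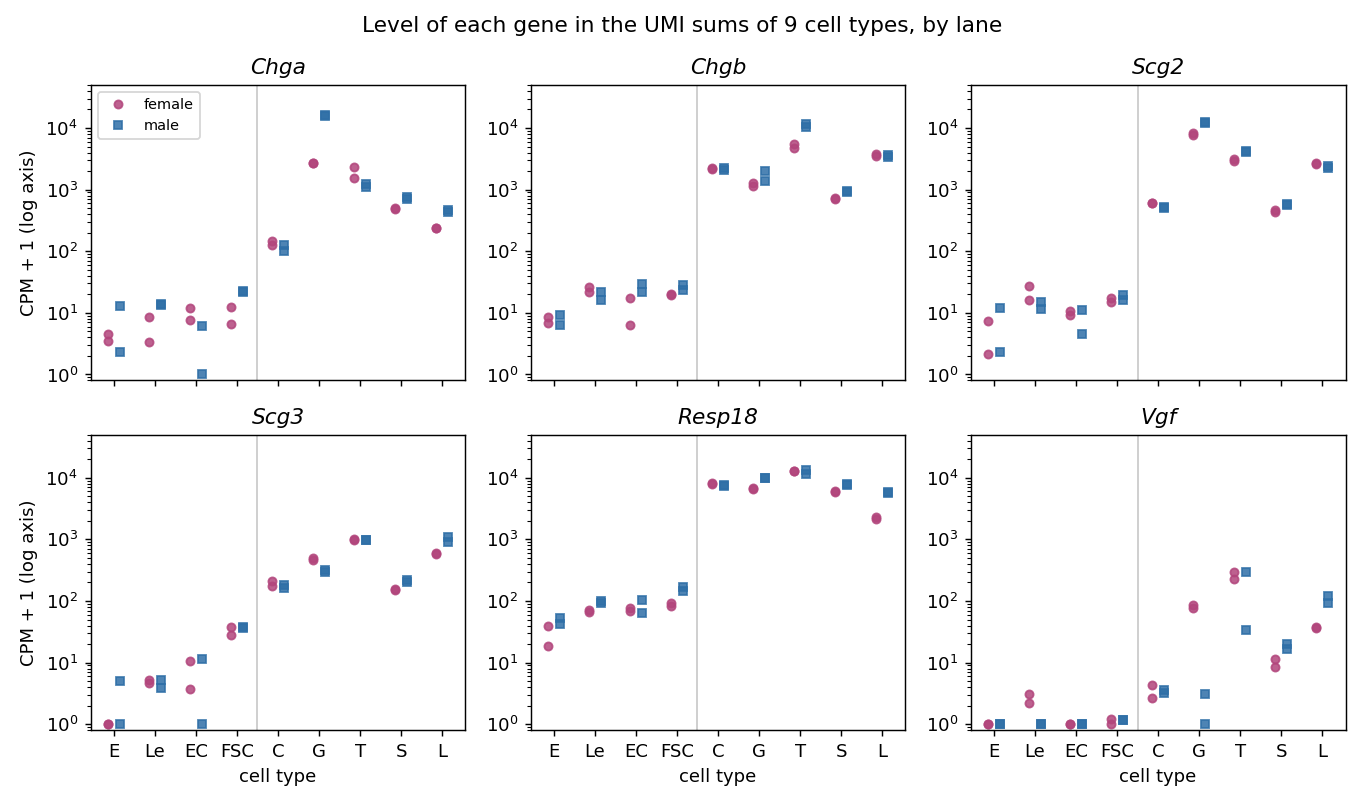
Level of each gene, as counts per 1000000 UMIs (CPM) plus 1 on a log axis, in the summed cells of each of 9 types (horizontal axis), with 1 point per lane (circles, 2 female lanes; squares, 2 male lanes). The vertical line parts the hormone-producing types at the right, where *Chga* in G reads 2708 and 2719 in the female lanes and 15630 and 16546 in the male lanes, and *Vgf* in G falls from 77.1 and 86.0 in the female lanes to 0 UMIs and 1 UMI in the male lanes.

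Added together, the 6 transcripts took up the largest part of the UMIs in T and G. Their share of all UMIs was 2.44% in female and 3.02% in male T, 1.92% in female and 4.03% in male G, 0.945% and 1.32% in L, 1.13% and 1.05% in C, and 0.778% and 1.02% in S. The make-up differed by type. *Resp18* gave 75.9% of these UMIs in S and 72.0% in C, where *Chgb* came second with 9.31% and 20.1%. In T *Resp18* (44.6%) and *Chgb* (32.9%) led. In L and G the sexes differed in the leading gene, which was *Chgb* in female L (39.1%) and *Resp18* in male L (43.5%), and *Scg2* in female G (41.7%) and *Chga* in male G (39.9%). Set beside the 7 hormone genes *Gh1*, *Prl*, *Pomc*, *Cga*, *Lhb*, *Fshb* and *Tshb*, there were 32.8 hormone UMIs for each UMI of the 6 genes in S, 25.7 in L, 19.0 in C, 5.80 in T and 5.62 in G. In G this ratio was 8.99 in females and 2.30 in males, and in L it was 33.8 and 14.0. These are shares of sums and were not tested.

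**Figure D3:**
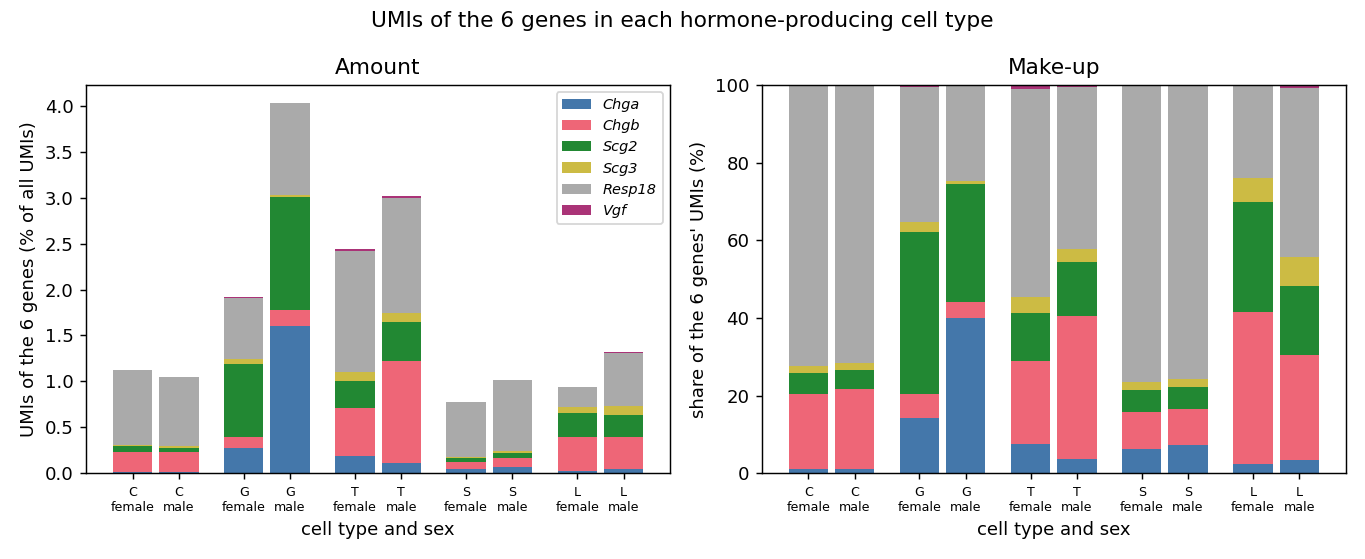
Left, UMIs of the 6 genes as a percentage of all UMIs in the summed cells of each hormone-producing type and sex (bars stacked by gene). Right, the same bars as shares of the 6 genes' own UMIs, in which *Chga* takes 14.1% in female and 39.9% in male G and *Resp18* 23.6% in female and 43.5% in male L.

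Cells differed in how many of the 6 genes they expressed. At least 4 genes were above threshold in 97.6% of T, 95.8% of G, 91.3% of L, 60.9% of S and 52.8% of C. In C, 46.4% of cells expressed 4 of the genes and 37.5% expressed 3, and *Vgf* and *Chga* were the genes most often below threshold. S was the most mixed type, with 22.2% of cells expressing 2 or fewer of the genes, 31.9% expressing 5 and 2.86% expressing all 6. Within S the genes were found together more often than the product of their shares, with *Chga* and *Chgb* both present in 56.9% of cells against a product of 50.2%, and *Chgb* and *Scg2* in 52.9% against 45.7%. Whether a scaled count passes a threshold depends in part on the depth of the cell. These pairs were therefore also followed at 2000 UMIs per cell, where the rank correlation across cells was weak (0.23 to 0.27 and 0.19 to 0.28 over the 4 lanes). Among C, G, S and L the highest such correlation was that of *Chgb* with *Scg2* in L, at 0.41 to 0.52 in the 4 lanes. T was left out of this ranking, since its lanes held only 17 to 26 cells. Its values reached higher but spread widely, as with *Chgb* and *Scg3* (0.29 to 0.72) and *Scg2* and *Resp18* (-0.08 to 0.74). In FSC 84.2% of cells expressed none of the genes and 15.4% expressed 1, and the highest number, 4, was reached in 1 of 2312 cells. The thresholds behind these numbers are unlike, from 0.695 scaled UMIs for *Vgf* to 8.18 for *Resp18*. That of *Scg3* was low, at 1.06, and 340 FSC passed it. *Resp18*, *Chgb* and *Scg2* had served to recognise HPC, and ambiguous cells had been removed. The numbers of genes per cell in FSC and in HPC therefore follow in part from the classification.

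**Figure D4:**
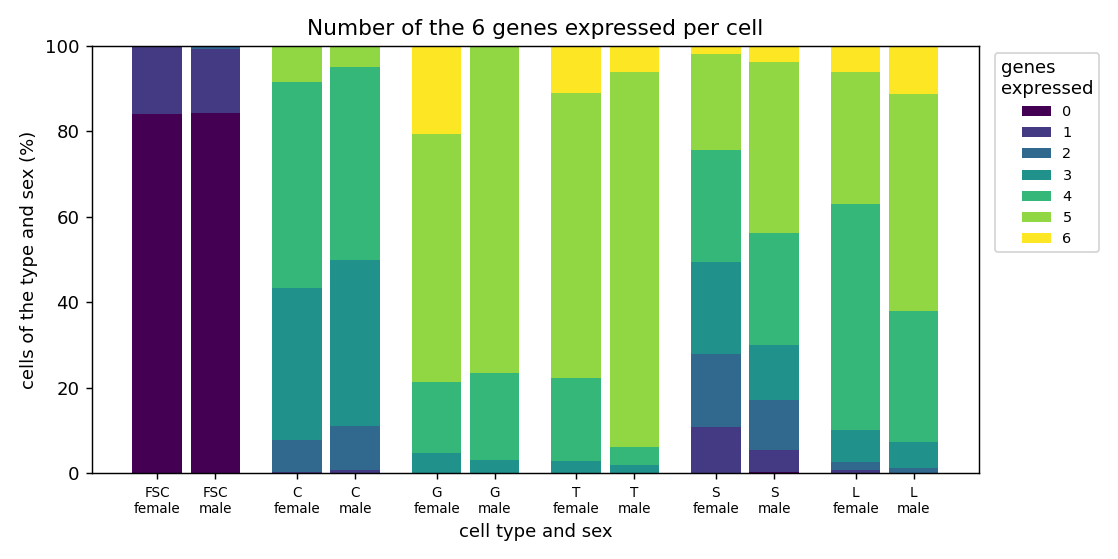
Share of cells (%) that expressed 0 to 6 of the genes (colours), for FSC and each hormone-producing type by sex. At least 4 genes were expressed in 50.5% of female and 70.0% of male S and in at least 89.9% of L, G and T of either sex. The contrast of FSC with the other types follows in part from the classification, which used *Resp18*, *Chgb* and *Scg2*.

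The sexes were compared within each type by the summed UMIs of 2 male against 2 female lanes, which sets the difference between 1 male and 1 female pool against the error between lanes. Of 34 such contrasts of the 6 genes, 23 passed at an adjusted p of 0.05. Over all genes tested the share that passed was 1.51% in C, 4.47% in T, 11.7% in FSC, 14.9% in G, 26.4% in S and 34.0% in L. *Vgf* had too few UMIs to be tested in C and FSC. Values are male over female. TMM factors, which centre the bulk of genes on no change, placed the sexes differently from plain library size in L (by 0.66 on the log2 scale), G (0.28) and T (-0.15), and by at most 0.06 in S, C and FSC. In L, G and T the value by library size is therefore given beside each difference of the 6 genes that passed. The difference between the sexes was not the same in the 5 hormone-producing types for any of the 6 genes by the test of all type-by-sex terms together, which 26.0% of all genes passed (adjusted p from 2.4e-25 for *Chga* to 6.1e-07 for *Resp18*).

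G had the widest differences. *Chga* was higher in male G by 2.30 ± 0.09 (adjusted p = 6.8e-10; 2.58 by library size), 4.93-fold with TMM factors, and both male lanes lay far above both female lanes. Every G cell but 1 expressed *Chga*, so the difference was one of level, from 99.3% of 145 female cells to 100% of 94 male cells. *Vgf* went the other way. It had 154 UMIs in female G, in 52 cells, and 1 UMI in male G, a ratio of 74.7 per UMI sequenced with an exact counting interval of 13.2 to 2968 (adjusted p = 1.8e-06, and 3.6e-10 by library size). *Vgf* passed its threshold in 25.5% of female G and in 0 of 94 male G, which allows a share of up to 3.19%. That limit concerns cells above the threshold, not cells that express the gene, since 1 male cell held a UMI, and male G were also shallower (a median of 8858 UMIs against 12316). *Scg3* was lower in male G by 0.93 ± 0.11 (adjusted p = 4.1e-05; 0.65 lower by library size) and did not pass in thinned cells (-0.46, adjusted p = 0.16). *Scg2* (0.35 ± 0.08, adjusted p = 0.0060; 0.62 by library size) and *Resp18* (0.30 ± 0.08, adjusted p = 0.021; 0.58 by library size) were higher in males. Without the male lane of 2047 cells or that of 2085 cells the differences were 0.36 and 0.34 for *Scg2* and 0.26 and 0.34 for *Resp18*, of the same sign, and none of these passed (adjusted p from 0.069 to 0.25), nor did *Resp18* with DESeq2 (0.29, adjusted p = 0.061). *Chgb* did not pass (0.19 ± 0.12, adjusted p = 0.34). It passed by library size (0.47, adjusted p = 0.00078) and narrowly with doublets and outlying cells kept (0.31, adjusted p = 0.048). Its difference was 0.41 without the male lane of 2047 cells and -0.07 without that of 2085 cells. G cells of the 2 pools also differed in the hormone share of UMIs, 17.3% and 9.26%. The part of depth and hormone share in these results was not tested, and *Chga* differed by 2.26 on the log2 scale in cells thinned to equal depth and by 2.30 with the 7 hormone genes left out.

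In S all 6 genes were higher in males, by a smaller amount. The differences were 0.50 ± 0.04 for *Chga*, 0.33 ± 0.03 for *Chgb*, 0.28 ± 0.04 for *Scg2*, 0.39 ± 0.05 for *Scg3*, 0.32 ± 0.02 for *Resp18* and 0.88 ± 0.18 for *Vgf*, with adjusted p from 2.3e-13 for *Resp18* to 0.00027 for *Vgf*. For each gene the 2 male lanes lay above the 2 female lanes. Over all genes in S, 13.4% were higher and 13.0% lower in males. The share of S with at least 4 of the genes was 49.4% and 51.5% in the female lanes and 70.8% and 69.2% in the male lanes. Male S were also deeper (a median of 15457 UMIs against 11552.5), and at 2000 UMIs per cell the mean number of the 6 genes detected was 2.98 and 2.91 in the female lanes and 3.30 in both male lanes. In thinned cells *Vgf* no longer passed (1.10, adjusted p = 0.096) and the 5 other genes did.

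L showed opposite directions. *Resp18* was higher in males by 0.71 ± 0.05 (adjusted p = 8.7e-16; 1.37 by library size), and so was *Vgf*, by 0.89 ± 0.17 (adjusted p = 3.1e-05; 1.54 by library size), which did not pass in thinned cells (0.76, adjusted p = 0.25). *Chga* was higher by 0.28 ± 0.09 (adjusted p = 0.0092; 0.94 by library size), and this call was lost with DESeq2, in thinned cells, and without the female lane of 1861 cells (0.24, adjusted p = 0.085) or the male lane of 2047 cells (0.24, adjusted p = 0.10). *Chgb* and *Scg2* were lower in males relative to the bulk of genes, by 0.71 ± 0.05 (adjusted p = 3.1e-15) and 0.83 ± 0.06 (adjusted p = 4.3e-17). Scaled to library size, however, the lanes of *Chgb* overlapped and its difference by library size was -0.05 (adjusted p = 0.44), while that of *Scg2* was -0.17. *Scg3* did not pass with TMM factors (0.10 ± 0.07, adjusted p = 0.30) and passed by library size (0.76, adjusted p = 7.8e-12). In thinned cells it passed with TMM factors as well (0.37, adjusted p = 0.030). Its difference was 0.23 without the male lane of 2047 cells and -0.02 without that of 2085 cells. Shares among the 6 transcripts do not depend on the scaling, and from female to male L *Chgb* went from 39.1% to 26.9% of the UMIs of the 6 genes, *Scg2* from 28.2% to 17.8% and *Resp18* from 23.6% to 43.5%. Female L were deeper than male L (medians of 18301 and 7253.5 UMIs), and 31.9% of their UMIs were hormone transcripts against 18.4%. The part of these in the result was not tested; in thinned cells the differences were -0.93 for *Chgb*, -0.85 for *Scg2* and 0.72 for *Resp18*.

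In T, with 36 female and 49 male cells of unequal depth (medians of 6237.5 and 13809 UMIs), *Chgb* was higher in males by 1.22 ± 0.19 (adjusted p = 3.9e-06; 1.08 by library size). This held in thinned cells (0.82) and was lost without the male lane of 2085 cells (1.17, adjusted p = 0.069). *Scg2* was higher by 0.61 ± 0.17 (adjusted p = 0.022) and *Chga* lower by 0.61 ± 0.18 (adjusted p = 0.029; 0.76 lower by library size), and neither passed with DESeq2 (adjusted p = 0.25 and 0.65), in thinned cells (0.24 and -0.54), or when either male lane was left out (adjusted p from 0.53 to 0.62). *Chga* also did not pass without the female lane of 1868 cells (-0.32, adjusted p = 0.42), nor *Scg2* by library size (0.47, adjusted p = 0.080). *Scg3* and *Resp18* did not pass (adjusted p = 0.83 and 0.94). *Vgf* did not pass (-0.45 ± 0.37, adjusted p = 0.61) but was lower in males by 2.83 (adjusted p = 7.3e-06) without the male lane of 2047 cells, which again is the lane of the single cell with 109 UMIs.

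C differed least. *Scg2* was lower in males by 0.32 ± 0.06 (adjusted p = 0.00048) and *Resp18* by 0.18 ± 0.04 (adjusted p = 0.019), and *Chga*, *Chgb* and *Scg3* did not pass (adjusted p = 0.23, 0.72 and 0.36). The call for *Scg2* was lost in thinned cells (-0.32, adjusted p = 0.55) and without the male lane of 2047 cells (-0.29). That for *Resp18* was lost in thinned cells (-0.15, adjusted p = 0.55), without either male lane (-0.18) and by library size (-0.12, adjusted p = 0.073). In FSC *Resp18* (0.83 ± 0.08, adjusted p = 2.9e-06) and *Chga* (1.29 ± 0.23, adjusted p = 0.0011) were higher in males. The counts in Le, which should lack both, stand beside these, and the part of free RNA in the difference in FSC was not tested. *Chga* went from 9 UMIs in female to 25 in male Le and from 72 to 220 in FSC, and *Resp18* from 119 to 188 in Le and from 733 to 1622 in FSC. Both calls in FSC were lost without the female lane of 1861 cells (0.76 for *Resp18* and 0.85 for *Chga*, adjusted p = 0.31), and *Chga* reversed to -0.08 with doublets and outlying cells kept. *Scg3* in FSC did not pass (0.13 ± 0.13, adjusted p = 0.59).

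**Figure D5:**
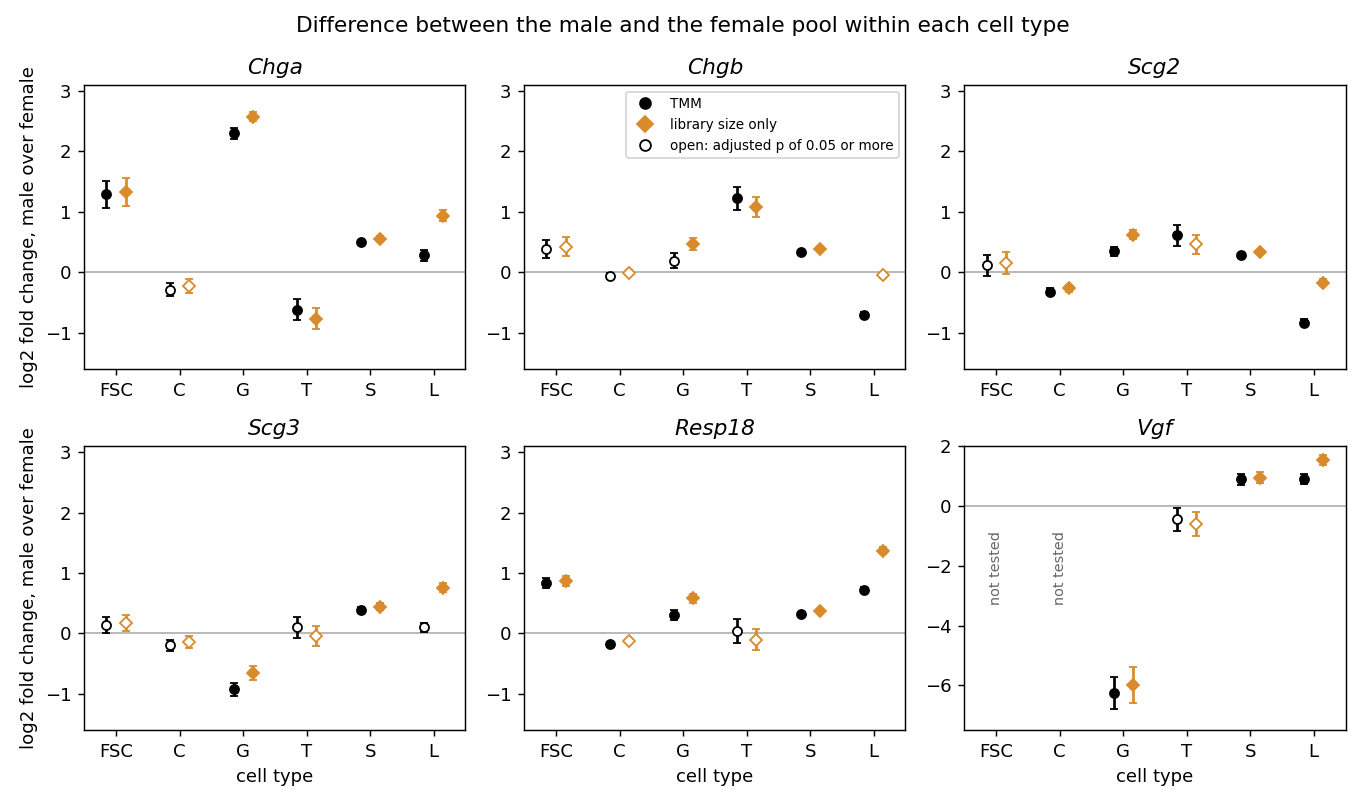
Log2 fold change of each gene, males over females, in FSC and the 5 hormone-producing types, with SE (bars), from 2 lanes per sex. Circles use TMM factors and diamonds library size alone, and open symbols did not pass an adjusted p of 0.05. *Chga* in G (2.30) and *Vgf* in G (-6.25 on the fitted scale) stand farthest from 0, and the 2 scalings part most in L.

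The genes whose levels most resembled those of the 6 were found over the 20 sums of 5 hormone-producing types in 4 lanes, by Pearson's r of log2 levels among 7508 genes with at least 10 CPM on average. These sums share pools and depth, so r is a description. *Chga* was closest to *Abhd14b* (0.97), *Lrrc3b* (0.95) and *Slc35g1* (0.95), and *Chgb* to the granule docking GTPase gene *Rab27b* (0.90), *Fam171b* (0.90) and *Trhr* (0.89), the receptor for thyrotropin-releasing hormone, which had served to recognise T. *Scg2* was closest to *Tmsbl1* (0.93), *Hddc3* (0.92) and *LOC103692537* (0.92), *Scg3* to *Gpm6a* (0.92), *Bmp15* (0.91) and *App* (0.88), *Resp18* to *Tmod2* (0.95), *Pfdn2* (0.93) and *Ctsb* (0.93), and *Vgf* to *Prrg2* (0.93), *Nme1* (0.86) and *Brinp1* (0.86). Among the 6 genes themselves, *Scg3* with *Vgf* (0.81), *Chga* with *Scg2* (0.79) and *Chgb* with *Scg3* (0.78) were most alike, and *Scg2* with *Vgf* reached 0.31.

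Other genes of the granule pathway were followed as 3 lists. Of 8 genes for granule cargo and processing enzymes, 6 could be tested, and each passed in at least 1 of the 10 contrasts between hormone-producing types, as did 44.0% of all genes tested. In HPC against FSC, 5 of the 6 were higher and none lower, with a median of 2.41 on the log2 scale against -0.11 over all genes. The prohormone convertase gene *Pcsk2* was highest in T, at a mean of 145 CPM against 0.367 to 11.9 in the other 4 types (T over S by 3.01 ± 0.72, adjusted p = 0.031). Its low level in C is set in part by the classification, since cells with 2 of *Pomc*, *Pcsk2* and *Pax7* above threshold were taken out as melanotrophs. *Pcsk1*, the other convertase gene, was also highest in T, at 156 against 14.1 to 45.2 (C below T by 3.37 ± 0.46, adjusted p = 0.00097). T over S (1.40 ± 0.42, adjusted p = 0.071) and T over L (1.39 ± 0.44, adjusted p = 0.084) did not pass for *Pcsk1*. *Pam*, which encodes the enzyme that amidates peptide ends, was at 753 in T and 185 in C (C below T by 1.88 ± 0.29, adjusted p = 0.0020), and *Cpd*, a carboxypeptidase gene, at 53.4 in G and 15.8 in S (G over S by 1.31 ± 0.29, adjusted p = 0.0091).

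Of 25 genes for the granule membrane, granule formation and release, 24 could be tested. Of these, 15 passed in at least 1 contrast between hormone-producing types, as did 44.0% of all genes tested. In HPC against FSC 19 were higher and 1 lower, with a median of 1.89, beside 18.3% and 29.4% of all genes. *Rab3b*, a GTPase of exocytosis, was at 1314 CPM in C against 73.9 to 138 in the other 4 types (C over S by 2.98 ± 0.55, adjusted p = 0.0023). *Sytl4*, which encodes the Rab27 effector granuphilin, was at 341 in C, 157 in S and 5.31 in L (C over L by 5.92 ± 0.47, adjusted p = 7.7e-06), and it was the 1 gene of this list lower in HPC than in FSC (by 0.97 ± 0.26, adjusted p = 0.0080). *Rab27b* was at 72.9 in T and 9.57 in S (T over S by 2.42 ± 0.33, adjusted p = 0.0017), and *Slc18a2*, the vesicular monoamine transporter gene, was at 5.20 in S and 0.209 in C (C below S by 4.68 ± 1.05, adjusted p = 0.0084). C, with the lowest *Chga*, thus had the highest mean *Rab3b* and *Sytl4* of the 5 types, though *Sytl4* in C and S did not pass (0.80 ± 0.34, adjusted p = 0.11).

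Of 6 genes for transcription regulators, 3 passed in at least 1 contrast between hormone-producing types, beside 44.0% of all genes tested. In HPC against FSC 4 were higher and 2 lower, beside 18.3% and 29.4% of all genes. *Neurod1* was at 172 CPM in C and 51.2 in G, against 0.485 to 12.8 in T, S and L (C over S by 7.15 ± 0.55, adjusted p = 5.7e-06). *St18* was at 29.7 in G and 6.49 in S (G over S by 1.68 ± 0.45, adjusted p = 0.022). *Rest*, a repressor of neuroendocrine genes in other tissues, was named after its values were seen. It was at 18.3 CPM in FSC, 22.8 in Le and 19.4 in EC, at 0.812 in C (8 UMIs) and 0.0936 in S (3 UMIs), and at 0 UMIs in G, T, L and E.

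Between the sexes, values of list genes are given with TMM factors. The list for cargo and processing had 4 of 6 genes higher and 0 lower in male T, where 2.82% of all genes were higher and 1.65% lower, but by library size 1 of the 6 was higher. In S 3 of 6 were higher and 1 lower, by either scaling. *Pcsk2* was higher in males in T (1.47 ± 0.33, adjusted p = 0.0026) and L (2.62 ± 0.47, adjusted p = 1.5e-05) and lower in S (-1.64 ± 0.18, adjusted p = 1.1e-08), and *Pcsk1* was higher in T (1.08 ± 0.33, adjusted p = 0.043). In the list for the membrane and release, 9 of 23 genes tested were higher and 2 lower in male S by either scaling, beside 13.4% and 13.0% of all genes with TMM factors. In male L 7 of 22 were higher and 8 lower relative to the bulk of genes (14.8% and 19.2% of all genes), whereas by library size 11 were higher and 2 lower (53.7% and 6.56% of all genes), so no direction is given for the list in L. In L, *Rab3b* (2.56), *Sytl4* (1.52), *Snap25* (1.08) and *Stx1a* (1.06) were higher in males, and *Rab3d* (-1.99), the IA-2 gene *Ptprn* (-1.74) and, among the regulators, *St18* (-1.69) were lower, with adjusted p from 1.8e-21 for *Ptprn* to 0.027 for *Sytl4*. In S, *Slc18a2* (3.78 ± 0.37, adjusted p = 6.2e-10) and *Cadps2* (1.51 ± 0.34, adjusted p = 0.00092) were higher. In G, *Rab3b* (1.75 ± 0.26, adjusted p = 0.00028) and *Sytl4* (1.28 ± 0.19, adjusted p = 0.00024) were higher in males as well. In FSC, *Rab3b* (2.05), *Snap25* (1.53), *Syt7* (1.51) and *Insm1* (1.44) were higher in males at levels of at most 23.1 CPM, with adjusted p from 1.9e-07 to 0.030. Hormone transcripts also differed in FSC, with 4 of the 7 hormone genes higher in males and 2 lower. The part of free RNA in these differences was not tested.

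Melanotrophs of the intermediate lobe, which were taken out of the 9 types, numbered 60 cells, 56 of them male, and were described only. Their 56 male cells held 4022 UMIs of the 6 genes, 71.1% of them *Resp18* and 14.5% *Chgb*, beside 71.7% and 20.7% in male C. *Chga* passed its threshold in 21.7% of melanotrophs (12.1 to 34.2) and *Scg3* in 71.7% (58.6 to 82.5). *Pcsk2*, one of the marker genes by which these cells were recognised, was at a mean of 715 CPM.

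The cell types carried their known markers beyond the genes used to set them. The corticotroph factor *Tbx19* was at 203 CPM in C and at most 1.62 in the 8 other types, the gonadotroph factor *Nr5a1* at 171 in G and at most 10.3, and *Pou1f1* at 215, 308 and 513 in T, S and L and at most 6.75 elsewhere. The male gene *Eif2s3y* was at 87.0 and 87.3 CPM in the male lanes and at 0.0492 and 0 in the female lanes. *Ddx3y*, which the paper also lists as male, did not part the sexes. It was scarce, at 0.470 and 0.582 CPM in the male lanes and 0.394 and 0.528 in the female lanes. The lanes held between 18955509 and 24048021 UMIs, and 30 barcode sequences occurred in more than 1 lane, in 60 cells.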

How the data were processed

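The authors counted UMIs per gene with Cell Ranger 2.1 (per the submitters' processing notes) against an NCBI rat annotation extended at gene ends, combined the 4 lanes after equalizing mapped reads, and deposited 1 table of raw, whole-number counts for 30058 genes and 7861 cells. A cell's lane is the number in its barcode. The study states how many cells each sex gave per lane, which fixed the sex of a lane, and lane replicate numbers are not known. The 6 genes and the gene lists were chosen with earlier results of these data known.

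Cells were classified after the study's methods, with Otsu thresholds (256 bins) on log10 scaled counts of its marker genes per sex, imputation from 30 neighbours, removal of ambiguous cells, of cells over 2 SD of the mean mitochondrial share, of the lowest and highest 1.5% by genes and UMIs, and of 183 doublets called with 30% synthetic doublets. Shares use 1 threshold per gene over all cells used. Where no cell passed a threshold, the limit given is 3 cells over the group. Intervals are exact Clopper-Pearson intervals (95%), and intervals and limits cover counting error only.

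UMI sums were tested with edgeR 4.0.16 (quasi-likelihood, TMM, filterByExpr with a minimum count of 10), 2-sided, with Benjamini-Hochberg adjustment over all genes tested. SE were taken from the fold change and the F statistic. Types used 12 sums (6 types in 2 sexes), with a term for sex, E, Le and EC left out since globin distorts TMM factors. Sexes used sums per lane within a type, so p-values measure error between lanes. The interaction was tested over 20 sums. The fits were tested on simulated data. Named list genes were the 4 per list with the widest range of log2 level among those called between types, and those called between sexes at a log2 fold change of at least 1. *Insm1* was read as LOC100912563. One gene that this rule names is not reported here. *Qpct* was not used here, and *Pcsk1n* and *Slc18a1* had too few UMIs for the tests between types. Alternatives were DESeq2 1.42.0, library size, no low-count filter, a limit of 0.001, no hormone genes, no gate for hormone-producing cells, doublets and outliers kept, cells thinned to 2000 UMIs, sums per lane, other thresholds and each lane left out. RefSeq tables of GRCr8 gave promoters. Figures were drawn with matplotlib 3.10.9.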

Additional observations from a re-analysis of the deposited data

Results flagged for a closer look

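The difference between the male and the female pool was not the same in the 5 hormone-producing types for any of the 6 genes, by edgeR's quasi-likelihood F test of all type-by-sex terms with Benjamini-Hochberg adjustment over all genes. The adjusted p was 2.4e-25 for *Chga*, which was higher in male G, S and L and lower in male T. It was 6.0e-17 for *Chgb*, higher in male T and S and lower in male L relative to the bulk of genes, and 1.7e-16 for *Scg2*, higher in male G, S and T and lower in male C and L. It was 5.2e-10 for *Scg3*, lower in male G and higher in male S, 3.1e-08 for *Vgf*, lower in male G and higher in male S and L, and 6.1e-07 for *Resp18*, higher in male G, S and L and lower in male C. Of these directions, those of *Chga*, *Chgb* and *Scg2* in T, of *Chga* in L and of *Scg2* and *Resp18* in C and G kept their sign but no longer passed when a certain single lane was left out. The lanes are technical replicates of 1 pool per sex, so these tests cannot tell sex from pool or age.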

How the results depend on the processing

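All 6 interactions passed under every alternative run for them (adjusted p only; 72 of 72 values). Of 60 contrasts between hormone-producing types 35 passed, and between 32 and 47 did under the other fits, but 10 at a limit of 0.001. With sums per lane 11 more passed, though the lanes of a pool are technical replicates. Of 34 contrasts between the sexes 23 passed, 15 of 33 in cells thinned to 2000 UMIs (*Vgf* in G then had too few UMIs), 16 at a limit of 0.001, and between 18 and 24 under the others (21 of 36 without the filter on low counts), with 18 to 22 when a lane was left out (the lone lane is then assumed to vary like the others). The number of gene and type pairs with at least 20% of cells expressing was 24 of 54, and 24 to 32 otherwise. Each gene kept its highest type under every alternative run for levels, all of which scaled to library size. With TMM factors *Scg3* was at -0.13 in T over L, which did not pass. One passing contrast reversed, *Chga* in FSC between the sexes, at -0.0806 with doublets and outlying cells kept. Among contrasts that had not passed, library size reversed *Resp18* in C over G (-0.0241), C over S (0.24), G over S (0.27) and T by sex (-0.11), *Scg2* in C over S (0.15) and T over L (0.50), and *Scg3* in T over L (0.33) and T by sex (-0.0462). Thinned cells reversed *Scg3* in FSC by sex (-0.13), and kept doublets reversed *Chga* in C by sex (0.0475). With a lane left out, *Scg2* in T over L ranged from -0.12 to 0.0569 and in FSC by sex from -0.0454 to 0.25, *Scg3* from -0.0655 to 0.35 in FSC and from -0.0224 to 0.23 in L by sex, *Chgb* in G by sex from -0.0692 to 0.41, and in T by sex *Vgf* from -2.83 to 0.34 and *Resp18* from -0.10 to 0.19. The cause of these changes was not tested. No paired analysis was possible because the lanes in the table could not be matched to replicate numbers. Depth limits *Vgf* in C and FSC, with 23 and 3 UMIs.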
